A study of Mus musculus with 17 samples.

Results

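The transcripts of 34 genes that carry out DNA replication and mitosis were followed across preparations of mouse colon macrophages. They were matched by symbol to a named list, drawn up with earlier results of these data known although its rule uses no measured value, and 34 of 34 had a row among the 27179 genes of each count table. The filter on low counts was passed by 34 of 34 in every comparison. The study sequenced RNA from 17 libraries of C57BL/6(h-2b) mice of 8 weeks. The titles number the mice, and MCJ-deficient mice 1 and 2 occur both without treatment and with DSS, with nothing said on whether they are the same animals. Wild-type (WT) mice and mice deficient in MCJ were compared in 3 conditions. MCJ, the product of Dnajc15, is a protein of the inner mitochondrial membrane that restrains complex I.

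In the first condition, written NN in the titles, no treatment is named (3 WT and 2 MCJ-deficient libraries). In NP the mice received dextran sulfate sodium (DSS), which injures the colon epithelium, for 6 days without antibiotic (3 and 3 libraries). In PP a broad-spectrum antibiotic was given for 7 days before the 6 days of DSS (3 and 3). All mice share the strain and the age, and the labels name no group that received antibiotic without DSS. The labels give neither the design of the MCJ allele nor the cells in which it acts. Colon tissue was washed and digested with collagenase type IV, and no sorting step is named. Libraries are called below by group and number, such as WT NP 8.

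Cells copy their DNA once per division, in S phase, and separate the copies in mitosis. Before S phase the licensing factors Cdc6 and Cdt1 load the MCM ring, the core of the replicative helicase, onto origins, and E2F factors switch on most genes of replication. The cyclins A2, B1 and B2 then activate the kinase Cdk1 and start mitosis, and the ubiquitin ligase that Cdc20 activates ends it. In the colon most dividing cells lie in the lower crypt, and injury is followed by division of epithelium and of incoming white blood cells. By role the list held 9 genes of helicase loading and unwinding, 5 of DNA synthesis and nucleotide supply, 4 of entry into S phase, 7 mitotic cyclins and kinases, 4 of the spindle checkpoint and anaphase, and 5 of chromosome structure and kinetochore. The first 3 roles make up 18 S phase genes and the last 3 make up 16 mitosis genes.

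The 250 bases before the transcription start of 6 members are shown, namely Mcm6, Rrm1 and Rrm2 as replication genes that rose after antibiotic and DSS in WT, and Cdk1, Ccnb2 and Ube2c as mitosis genes that did not pass there. The sequences are those of RefSeq on GRCm38.p6, written 5′ to 3′ on the strand of the gene. They lie at chr1:128359706-128359955 (minus strand) for Mcm6, chr7:102441445-102441694 (plus) for Rrm1, chr12:24708004-24708253 (plus) for Rrm2, chr10:69352913-69353162 (minus) for Cdk1, chr9:70421555-70421804 (minus) for Ccnb2 and chr2:164769679-164769928 (plus) for Ube2c. Capitals mark matches on either strand to the E2F words TTTCCCGC, TTTGGCGC, TTTCGCGC and TTTGCCGC, to TTTGAA, the word of the cell cycle homology region (CHR), and to CCAAT, which NF-Y binds.
Mcm6: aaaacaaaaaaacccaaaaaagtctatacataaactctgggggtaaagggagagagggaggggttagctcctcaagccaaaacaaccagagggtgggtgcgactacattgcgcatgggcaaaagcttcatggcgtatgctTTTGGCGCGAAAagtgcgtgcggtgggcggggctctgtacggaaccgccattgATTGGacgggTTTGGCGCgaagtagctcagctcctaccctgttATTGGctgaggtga
Rrm1: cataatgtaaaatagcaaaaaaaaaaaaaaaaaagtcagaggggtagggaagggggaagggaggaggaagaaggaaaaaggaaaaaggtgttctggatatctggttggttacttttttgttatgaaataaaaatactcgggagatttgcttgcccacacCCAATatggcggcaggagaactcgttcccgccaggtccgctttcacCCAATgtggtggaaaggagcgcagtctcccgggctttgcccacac
Rrm2: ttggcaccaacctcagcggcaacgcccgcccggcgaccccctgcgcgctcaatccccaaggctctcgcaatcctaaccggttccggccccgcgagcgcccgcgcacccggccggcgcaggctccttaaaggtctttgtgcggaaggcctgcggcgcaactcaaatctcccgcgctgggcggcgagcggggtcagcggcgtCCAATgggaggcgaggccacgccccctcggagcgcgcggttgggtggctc
Cdk1: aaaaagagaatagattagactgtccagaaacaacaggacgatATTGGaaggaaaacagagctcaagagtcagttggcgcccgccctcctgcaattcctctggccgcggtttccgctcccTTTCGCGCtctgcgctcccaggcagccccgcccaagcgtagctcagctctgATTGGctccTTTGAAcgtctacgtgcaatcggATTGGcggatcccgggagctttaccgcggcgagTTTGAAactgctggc
Ccnb2: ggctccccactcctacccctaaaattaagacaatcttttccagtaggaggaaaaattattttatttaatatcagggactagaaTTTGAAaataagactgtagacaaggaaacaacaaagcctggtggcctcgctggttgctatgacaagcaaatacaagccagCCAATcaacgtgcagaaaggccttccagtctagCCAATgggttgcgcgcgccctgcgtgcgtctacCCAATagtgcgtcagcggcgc
Ube2c: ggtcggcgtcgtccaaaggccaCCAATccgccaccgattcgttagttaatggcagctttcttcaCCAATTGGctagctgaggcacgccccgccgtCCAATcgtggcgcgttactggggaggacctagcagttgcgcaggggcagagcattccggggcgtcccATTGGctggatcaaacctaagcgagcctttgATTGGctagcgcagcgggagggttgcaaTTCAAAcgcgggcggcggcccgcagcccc

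Of the members, 29 of 34 had an upstream sequence in the table. Mcm4, Ccne2, Aurkb, Gins2 and Ccna2 had none. An E2F word stood in 6 of 29, namely 5 of 15 S phase genes and 1 of 14 mitosis genes, and in 2.16% of the 27025 genes with a sequence of the same length. The CHR word stood in 7 of 29, namely 1 of 15 S phase genes and 6 of 14 mitosis genes, and in 18.26% of genes. Besides Cdk1, Ccnb2 and Ube2c it stood in Mki67 and Top2a, mitosis genes that rose after antibiotic and DSS in WT. No link between a word and a rise was tested. CCAAT stood in 22 of 29, namely 9 of 15 and 13 of 14, and in 37.49% of genes. Ccnb2 held CCAAT at 87, 54 and 21 bases before the start. The E2F words overlap each other in Mcm6, where the matches start 110 and 106 bases before the start. A match describes the letters of this window and not binding of a factor.

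Before the members, 3 features of the libraries bear on every value. Depth ran from 29194744 to 37083344 counts per library, and transcripts of the mitochondrial chromosome took 23.1 to 50.4% of them. The number of genes with at least 10 counts ran from 10075 in WT NN 2 to 14790, and 9 of the 34 members had no count in WT NN 2, which allows a level of up to 0.146 CPM each (3 counts, counting error only). Levels are CPM, counts scaled to the size of the library, with TMM factors. The transcript of Dnajc15, which encodes MCJ, was lower in the MCJ-deficient libraries by a log2 fold change of -3.76 in NN (adjusted p = 0.326), -4.19 in NP (9.96e-05) and -4.15 in PP (0.791) by the quasi-likelihood test of edgeR, with p adjusted over all genes tested. Its counts did not overlap between genotypes in any condition, with 359 to 1534 in WT and 21 to 121 in MCJ-deficient libraries.

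The preparations held more epithelial than macrophage transcripts, and both moved with the condition. The 12 pan-epithelial markers, such as Epcam and Krt8, summed to 10660 to 14280 CPM without treatment, 7878 to 10122 CPM with DSS and 4276 to 8559 CPM after antibiotic and DSS. Krt8, Krt19 and Epcam had the highest group means of the 12, and not every marker fell with the sum. Cdh17 had means of 308, 378 and 362 CPM in WT NN, NP and PP. In MCJ-deficient mice Krt18 and Krt20 had 202 and 255 CPM in NN and 238 and 259 CPM in PP. The 13 macrophage markers, such as Csf1r and Adgre1 (F4/80), summed to between 27.4 and 48.0 CPM in NN libraries, 115 and 825 in NP libraries and 447 and 4643 in PP libraries. Cd14 had the highest mean of the 13 in each group, with 17.9 CPM in WT NN, 977 in WT PP and 1986 in MCJ-deficient PP. Adgre1, Mertk, C1qa, C1qb, C1qc and Cx3cr1 had lower means in MCJ-deficient than in WT PP, and the others higher means. Of those 13, Adgre1, Csf1r, Mrc1 and Itgam had no count in 1 library each and Cx3cr1 and Fcgr1 had none in 3 each. The 12 crypt stem and progenitor markers summed to 69.0 to 141 CPM in NN and NP and to 70.4 to 161 in PP. The part of these shifts in the values below was not tested, and in bulk RNA fewer cells of a type and less RNA per cell cannot be told apart.

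The summed level of the 34 members was lowest without treatment. The sum was 183, 277 and 276 CPM in WT NN 1, 2 and 3, and 281 and 304 CPM in MCJ-deficient (KO) NN 13 and 14. Under DSS it was 669, 969 and 369 CPM in WT NP 7, 8 and 9, and 657, 581 and 397 CPM in KO NP 19, 20 and 21. After antibiotic and DSS it was 707, 799 and 450 CPM in WT PP 10, 11 and 12, and 228, 714 and 331 CPM in KO PP 22, 23 and 24. All NP libraries and all WT PP libraries thus lay above all NN libraries, while KO PP 22 lay within the NN range. The spread within groups was large. WT NP 8 was the highest of its group for 29 members and WT NP 9 the lowest for 30, and KO PP 23 was the highest for 31 and KO PP 22 the lowest for 28.

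**Figure D1:**
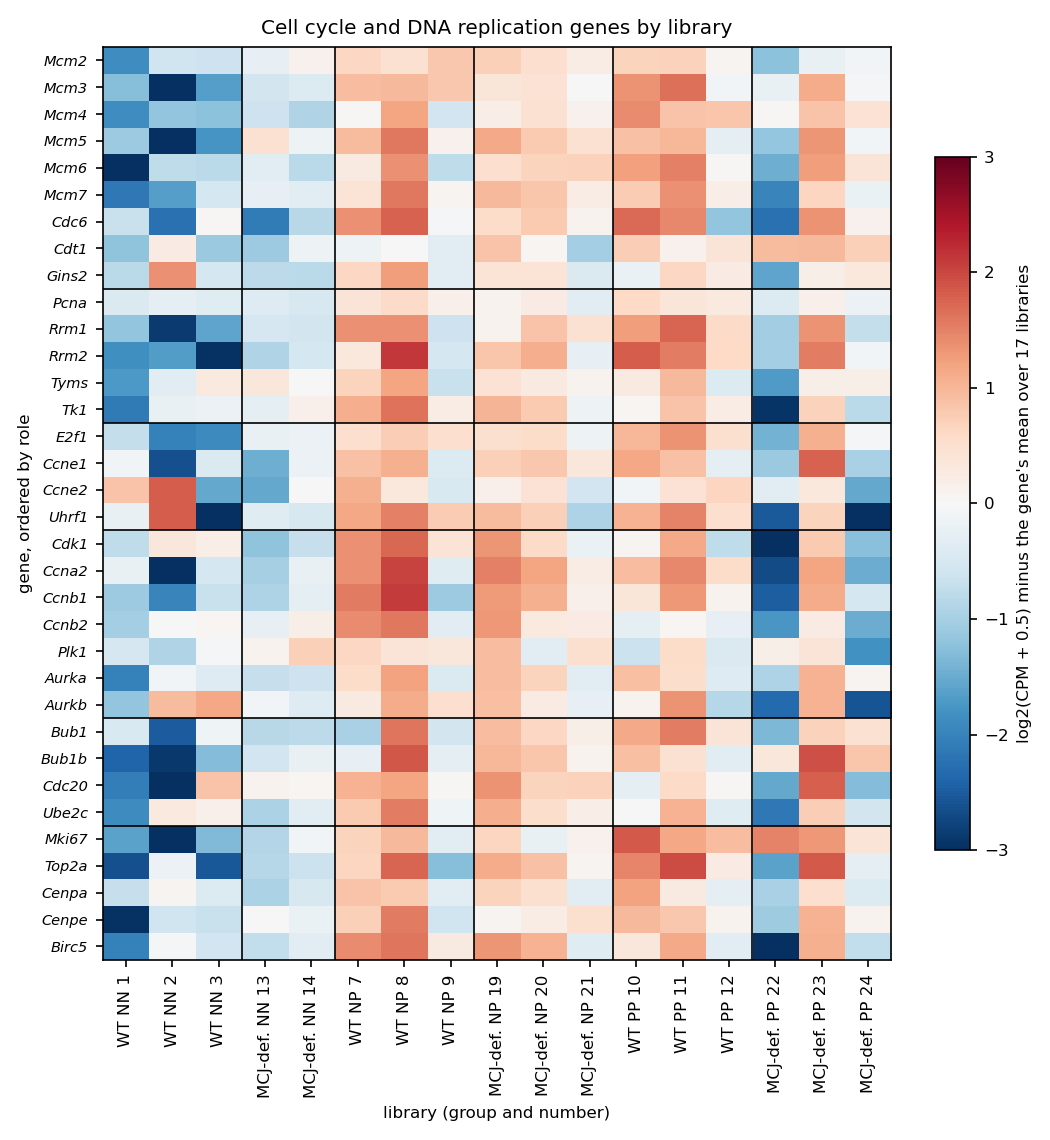
Level of each member (rows, ordered by role) in each of the 17 libraries (columns), as log2(CPM + 0.5) minus the gene's mean over libraries, from blue (lower) to red (higher). Most rows are blue in NN, where WT NN 2 has 9 genes without a count, red in WT NP 8 and KO PP 23, and pale or blue in KO PP 22.

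The S phase and the mitosis genes both had their lowest mean in NN in each genotype. In WT the mean of the S phase genes was highest in PP and that of the mitosis genes in NP, within the spread of the libraries. The 18 S phase genes summed to 156 ± 26.8 CPM (mean ± SD, n = 3) in WT NN, 387 ± 146 (n = 3) in WT NP and 411 ± 95.9 (n = 3) in WT PP. In MCJ-deficient mice they summed to 190 ± 7.99 (n = 2), 313 ± 59.8 (n = 3) and 258 ± 128 CPM (n = 3). The 16 mitosis genes summed to 88.8 ± 28.8, 282 ± 155 and 241 ± 85.9 CPM in WT NN, NP and PP, and to 102 ± 24.2, 232 ± 82.5 and 166 ± 130 CPM in MCJ-deficient mice. Within the mitosis genes, the 7 cyclins and kinases had WT means of 45.7, 138 and 89.0 CPM in NN, NP and PP, while the 5 genes of chromosome structure and kinetochore had 24.6, 96.3 and 117 CPM.

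**Figure D2:**
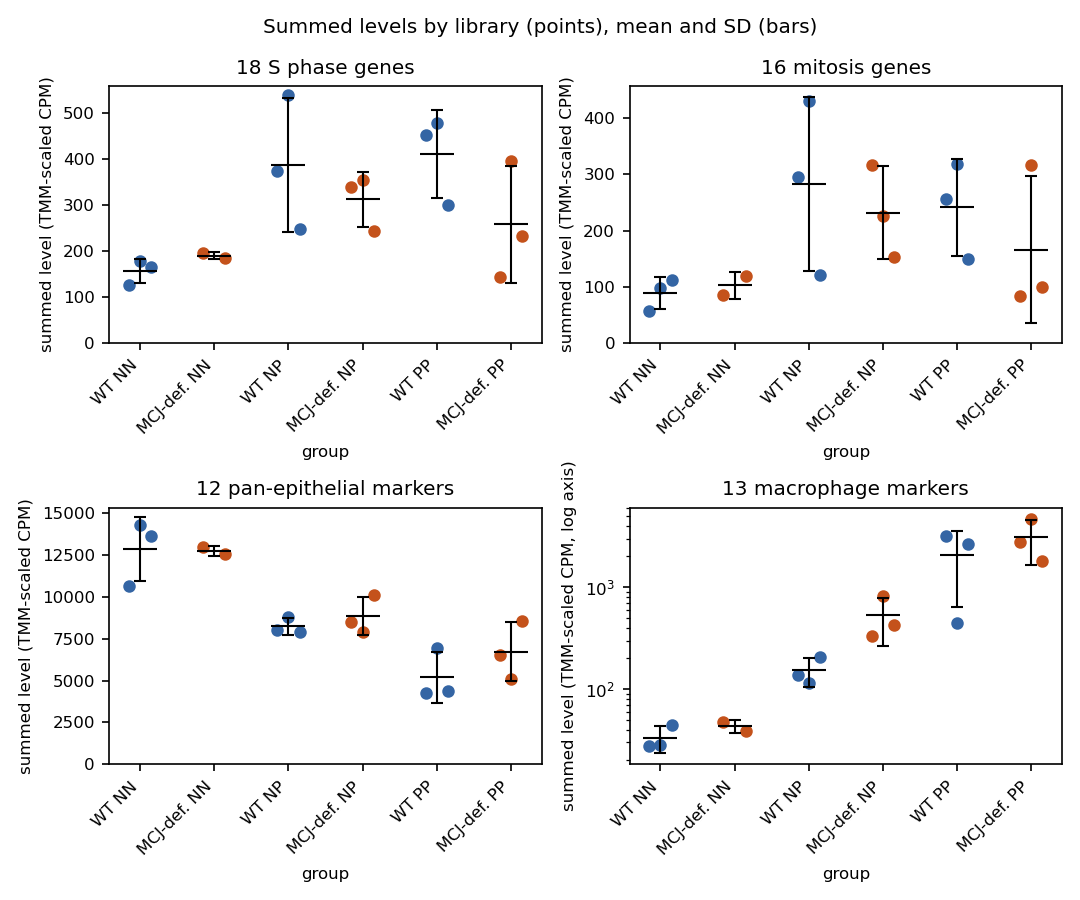
Summed TMM-scaled CPM of the 18 S phase genes, the 16 mitosis genes, the 12 pan-epithelial markers and the 13 macrophage markers (log axis) in each library (points), with the group mean and SD (bars). The cell cycle sums are lowest in NN, the epithelial sum falls from NN to PP and the macrophage sum is highest in PP, so the groups differ in all of them.

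Per kilobase of exon, which allows genes to be compared, Pcna, the clamp that holds DNA polymerases on their template, had the highest level of the 34 (47.2 CPM per kilobase, mean of the 6 groups). Ccnb2 followed at 8.71, with 16.1 in WT NP but 6.54 in WT PP, where Mcm4 with 8.20 and others stood above it, and Ccne2, a cyclin of S phase entry, was lowest at 0.341. Pcna alone made up 31.3 to 45.3% of the summed CPM of the members in WT NN, 17.1 to 33.7% in WT NP and 23.97, 18.03 and 30.6% in WT PP 10, 11 and 12. Without Pcna the other 33 genes summed to 159 ± 50.8, 524 ± 279 and 502 ± 174 CPM (SD, n = 3 each) in WT NN, NP and PP.

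DSS alone was compared with no treatment in each genotype. In WT mice 3 of 34 members rose, against 2.25% of the 16958 genes tested that rose and 0.195% that fell (adjusted p under 0.05). They were Rrm1 and Rrm2, the large and small subunits of ribonucleotide reductase, which makes the deoxynucleotides for replication, and Mcm4, a subunit of the MCM helicase. The log2 fold change was positive for 33 of 34, with a median of 1.78 (all genes 0.14). An unadjusted p under 0.05 (edgeR) was found for 19 of 34, against 15.9% of all genes. In MCJ-deficient mice 0 of 34 passed by the edgeR test or by DESeq2, against 2.04% of genes that rose and 0.0354% that fell by edgeR and 4.53% and 0.112% by DESeq2. There 34 of 34 were positive with a median of 1.08 (all genes 0.02). Of them 1 had an unadjusted p under 0.05 (edgeR), against 8.27% of all genes.

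Rrm2 had 1.92, 2.24 and 0.612 CPM in WT NN 1, 2 and 3 and 10.3, 37.2 and 5.54 CPM in WT NP 7, 8 and 9. The groups did not overlap, and WT NP 8 stood far above the other 2 treated libraries. Its log2 fold change was 3.48 (SE 0.78; adjusted p = 0.0231, edgeR). Rrm1 had 6.47, 1.65 and 4.78 CPM in WT NN and 40.2, 40.0 and 9.81 CPM in WT NP, a log2 fold change of 2.80 (SE 0.66; adjusted p = 0.0318, same test). Mcm4 had 3.44, 5.79 and 5.58 CPM in WT NN and 14.2, 31.9 and 9.22 CPM in WT NP, a log2 fold change of 1.90 (SE 0.41; adjusted p = 0.0192, same test). For all 3 genes WT NP 9 was the lowest treated library and still above each NN library. In the MCJ-deficient mice Mcm4 had the smallest p, with 8.78 and 7.15 CPM in KO NN 13 and 14 against 16.1, 19.2 and 15.2 CPM in KO NP 19, 20 and 21 (log2 fold change 1.08, SE 0.46; adjusted p = 0.5, same test).

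The other helicase genes, all in the same direction, did not pass in WT. Mcm3 had a log2 fold change of 3.27 (SE 0.86; adjusted p = 0.0517, edgeR), Mcm7 of 2.19, Mcm5 of 3.16, Mcm6 of 1.84 and Mcm2 of 1.78. The licensing factors Cdc6 and Cdt1 and the GINS subunit Gins2 had log2 fold changes between 0.32 and 2.36. Among the mitosis genes, Bub1b, a kinase of the spindle checkpoint, came closest (3.88, SE 1.03; adjusted p = 0.0541, edgeR). It had 0.205, 0 and 0.994 CPM in WT NN and 2.61, 12.97 and 2.51 CPM in WT NP. Ccne2 was the only member with a negative value in WT (-0.62), and WT NN 2, with 4.57 CPM, held its highest level of all 17 libraries.

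Without regard to the test, 17 of 34 members had all WT NP libraries above all WT NN libraries, against 12.9% of the 14738 genes with a mean of at least 10 counts. In MCJ-deficient mice it was 25 of 34, against 20.9% of genes, with only 2 untreated libraries. The calls depended on single libraries and on which groups shared the estimate of spread. Without WT NP 8 no member passed in WT (1.61% of genes rose), and without WT NN 1 E2f1 alone passed (1.77%). DESeq2 passed 12, where 5.31% of genes rose and 1.13% fell, and the edgeR test without a filter passed 8 (2.47%). In a fit of the 2 groups alone, 0 passed in WT (0.259%), and 9 passed in MCJ-deficient mice (Ccna2, Ccnb1, Cdk1, Mcm4, Mcm6, Mcm7, Rrm1, Top2a and Ube2c, where 5.91% of genes rose).

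Antibiotic before DSS was compared with no treatment in the same way, with the same NN libraries as controls. In WT mice 12 of 34 members rose, against 12.8% of genes that rose and 7.31% that fell. These were 5 helicase subunits (Mcm3, Mcm4, Mcm5, Mcm6 and Mcm7), 3 genes of DNA synthesis and nucleotide supply (Pcna, Rrm1 and Rrm2), the transcription factor E2f1, the checkpoint kinase Bub1b, and 2 genes of chromosome structure, Top2a, the topoisomerase that untangles sister DNA, and Mki67, which coats mitotic chromosomes. DESeq2 passed 14 (17.3% of genes rose and 9.11% fell), and a fit of the 2 groups alone passed 5 (6.89% rose). None of the 7 mitotic cyclins and kinases passed by edgeR, with log2 fold changes from -0.16 to 1.98. The value was positive for 31 of 34 members, with a median of 1.67 (all genes 0.27).

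Mcm4 had 37.9, 25.5 and 24.9 CPM in WT PP 10, 11 and 12, above each of the NN libraries given before, and a log2 fold change of 2.58 (SE 0.42; adjusted p = 0.000445, edgeR). Rrm2 had 30.3, 24.6 and 12.7 CPM (3.83, SE 0.79; adjusted p = 0.00259, same test) and Rrm1 had 36.8, 52.2 and 22.8 CPM (3.11, SE 0.67; adjusted p = 0.00335, same test). These 3 genes passed under every setting and with any single library left out. Mki67 had 4.99, 0 and 6.19 CPM in WT NN against 58.9, 36.9 and 31.1 CPM in WT PP (3.49, SE 0.84; adjusted p = 0.00692, same test). Top2a had 2.01, 13.4 and 2.18 CPM against 42.4, 59.7 and 18.1 CPM (2.78, SE 0.90; adjusted p = 0.0373, same test). Pcna moved least of the 12, from 82.8, 90.6 and 86.5 CPM to 169, 144 and 138 CPM (0.80, SE 0.22; adjusted p = 0.0175, same test), with little spread in either group.

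Cdk1, the mitotic kinase, had 7.49, 16.4 and 15.1 CPM in WT NN and 13.8, 28.99 and 7.44 CPM in WT PP, so that the groups overlapped. Ccnb2, a partner cyclin of Cdk1, had 5.24, 11.3 and 11.7 CPM in WT NN and 8.95, 11.7 and 9.40 CPM in WT PP, nearly the same range. The log2 fold changes were 0.36 (SE 0.74) for Cdk1 and 0.09 (SE 0.57) for Ccnb2. The difference between these genes and the replication genes was not tested, and Ccnb1 and Ccna2 had larger values of 1.98 and 1.97 without passing (Ccnb1 adjusted p = 0.106, edgeR). Ccnb1 passed by DESeq2 for antibiotic and DSS and for DSS alone in WT. Scaled to pan-epithelial markers, Ccnb1, Ccna2, Aurka and Plk1 passed for antibiotic and DSS, where 44.4% of all genes rose.

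In MCJ-deficient mice 0 of 34 members passed in PP against NN, where 6.52% of genes rose and 3.77% fell. Of the 34, 27 were positive with a median of 0.54 (all genes 0.06). An unadjusted p under 0.05 (edgeR) was found for 2 members, against 23.1% of all genes. DESeq2 passed Mcm4 alone, where 11.3% of genes rose and 4.6% fell, and scaling to pan-epithelial markers passed Cdt1, Mcm4 and Pcna (16.4% rose). Mcm4 had 14.2, 25.3 and 18.9 CPM in KO PP 22, 23 and 24 (log2 fold change 1.29, SE 0.47; adjusted p = 0.0919, edgeR), each above both KO NN libraries. Cdt1 had 1.34 and 3.01 CPM in KO NN and 7.11, 7.25 and 5.98 CPM in KO PP (1.64, SE 0.77; adjusted p = 0.212, edgeR), also without overlap. In all, 5 of 34 members had every KO PP library above every KO NN library (Mcm3, Mcm4, Cdt1, Bub1b and Mki67), against 23.8% of genes, and in WT it was 18 of 34 against 22.9%. The direction in MCJ-deficient mice rested on KO PP 23, and without it the median was -0.50, against 0.97 without KO PP 22 and 0.85 without KO PP 24. Aurkb alone then passed, with a lower level in PP (1.96% of genes fell).

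**Figure D3:**
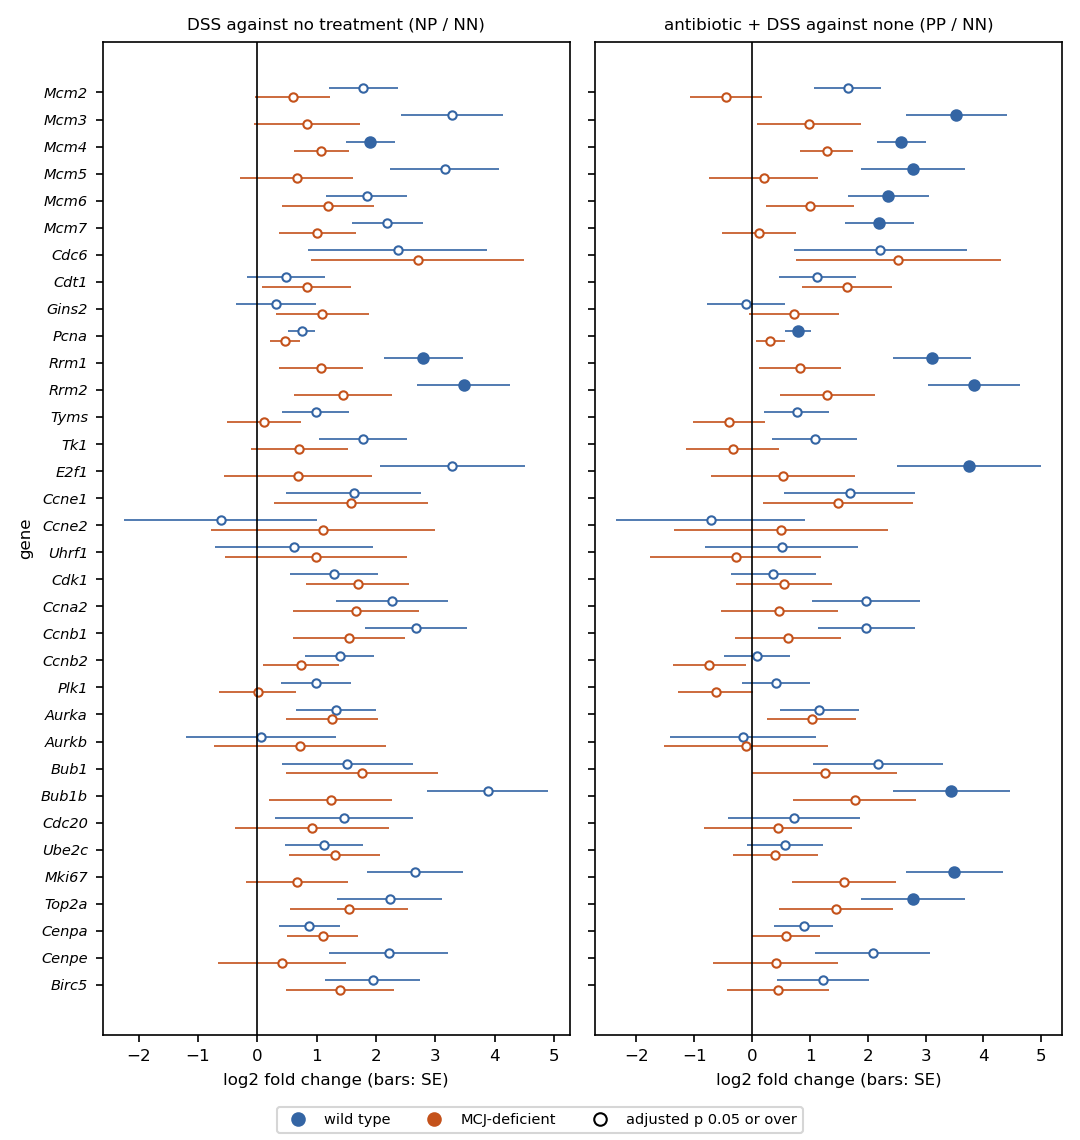
Log2 fold change of each member against no treatment (x axis, bars SE) for DSS (left) and for antibiotic and DSS (right), in wild-type (blue) and MCJ-deficient mice (orange). Filled points passed at an adjusted p under 0.05, which 3 did on the left and 12 on the right, all of them in wild type, and points of the mitotic cyclins and kinases are unfilled in both panels.

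Library sums of other cells moved with the same comparisons. From NN to PP the pan-epithelial sum went from 12846 ± 1924 to 5212 ± 1520 CPM in WT (SD, n = 3 each), and the macrophage sum from 33.5 ± 9.67 to 2086 ± 1445 CPM. Neutrophil markers went from 1.33 ± 0.45 to 454 ± 141 in NP and 854 ± 568 CPM in PP. In WT PP 10, 11 and 12 the macrophage sum was 3178, 447 and 2633 CPM and the pan-epithelial sum 4276, 6966 and 4395 CPM. WT PP 11 held the highest level of 22 members in its group. In KO PP 22, 23 and 24 the macrophage sum was 2796, 4643 and 1801 CPM, and KO PP 23 held the highest level of 31 members. Whether the members followed either sum was not tested. Per 1000 CPM of pan-epithelial markers the members summed to 17.2 to 24.3 without treatment, 39.2 to 110 with DSS and 34.8 to 165 after antibiotic and DSS. When libraries were scaled to these markers, 10 members passed for DSS and 25 for antibiotic and DSS in WT, where 5.05% and 44.4% of all genes rose and the median of all genes stood at 0.75 and 1.60.

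The effect of antibiotic among DSS-treated mice, PP against NP, was not detectable for any member. In WT 0 of 34 passed by the edgeR test or DESeq2. Of all genes 3.49% rose and 0.926% fell by edgeR, and 6.13% and 2.01% by DESeq2. An unadjusted p under 0.05 (edgeR) was found for 1 of 34, against 16.6% of all genes. The median was -0.13 (all genes 0.06) with 14 members positive. It turned to 0.22 with 24 positive without WT NP 8 and to 0.11 without WT PP 12, and it was -0.40 without WT NP 9, -0.29 without WT PP 11 and -0.23 without WT PP 10. Cdt1 alone had all PP libraries above all NP libraries (12.8% of genes did). In MCJ-deficient mice 0 of 34 passed by either test, where 1.34% of genes rose and 0.389% fell by edgeR. By DESeq2 3.96% rose and 1.49% fell. Again 1 member had an unadjusted p under 0.05 (edgeR), against 14.3% of all genes. The median was -0.47 with 29 of 34 negative. That median was -1.33 without KO PP 23, -0.11 without KO PP 22 and -0.18 without KO PP 24. The 7 mitotic cyclins and kinases were negative in both genotypes, with medians of -0.57 in WT and -0.93 in MCJ-deficient mice. Scaled to pan-epithelial markers, 4 of these 7 turned positive in WT and 1 in MCJ-deficient mice, and the medians over all members became 0.57 and 0.08.

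Ccnb2 had the smallest p of the members in both genotypes. It had 30.5, 34.4 and 8.83 CPM in WT NP and, as given above, 8.95 to 11.7 CPM in WT PP, with WT NP 9 below all 3 PP libraries. The log2 fold change was -1.30 (SE 0.57; adjusted p = 0.257, edgeR). In MCJ-deficient mice it had 28.0, 13.7 and 13.3 CPM in NP and 2.95, 13.2 and 3.63 CPM in PP, without overlap (-1.47, SE 0.58; adjusted p = 0.233, same test). Mcm2 also did not overlap there, with 4.74 to 6.83 CPM in KO NP and 1.40 to 3.72 CPM in KO PP, and 11.3% of genes had all KO PP libraries below all KO NP libraries.

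Loss of MCJ was compared within each condition. In NN 0 of 34 members passed by the edgeR test or DESeq2. Of 13559 genes 0.0% passed in either direction by edgeR, and 0.155% were higher and 2.15% lower by DESeq2. An unadjusted p under 0.05 (edgeR) was found for 0 members, against 8.29% of all genes. The log2 fold change, MCJ-deficient over WT, was positive for 21 and had a median of 0.52 (all genes 0.08), which was 0.14 without WT NN 1 and 0.28 without KO NN 14. For 12 of 34 both MCJ-deficient libraries lay above the 3 WT libraries, against 20.3% of genes. Among these Rrm1 had 10.5 and 10.3 CPM in KO NN against 6.47, 1.65 and 4.78 in WT NN (1.23, SE 0.75; adjusted p = 0.799, edgeR). Mcm5, a further helicase subunit, had 11.3 and 7.30 CPM against 3.56, 0 and 2.03 CPM (2.27, SE 1.53; adjusted p = 0.842, edgeR).

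Under DSS 0 of 34 members passed between genotypes by either test, against 0.983% of 14452 genes that were higher and 0.0208% that were lower in MCJ-deficient mice by edgeR and 2.17% and 0.325% by DESeq2. Of the 34, 29 were negative, with a median of -0.32 (all genes 0.03). Against 9.24% of all genes, 1 member had an unadjusted p under 0.05 (edgeR). That gene, Mcm3, had 9.80, 10.1 and 8.85 CPM in WT NP and 6.43, 6.72 and 4.94 CPM in KO NP, the only member without overlap between genotypes there (-0.67, SE 0.30; adjusted p = 0.539, edgeR). All KO libraries lay below all WT libraries for 7.11% of genes. Without WT NP 8 the median was 0.03, without KO NP 21 it was -0.07 and without WT NP 9 it was -0.57.

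After antibiotic and DSS 0 of 34 passed by either test. Of 14556 genes 0.0% passed in either direction by edgeR, and 0.337% were higher and 0.268% lower by DESeq2. An unadjusted p under 0.05 (edgeR) was found for 0 members, against 5.21% of all genes. Of the 34, 31 were negative with a median of -0.66 (all genes 0.01). Pcna and Mcm2 had all MCJ-deficient libraries below all WT libraries, against 6.08% of genes. Pcna had 169, 144 and 138 CPM in WT PP and 83.4, 124 and 99.1 CPM in KO PP (-0.54, SE 0.27; adjusted p = 0.942, edgeR). Mcm2 had 6.66, 6.75 and 4.26 CPM against 1.40, 3.36 and 3.72 CPM (-1.04, SE 0.54; adjusted p = 0.942, edgeR). The 3 positive members were Bub1b, Cdt1 and Cdc20, with Bub1b at 0.85. The size of the median depended on 3 libraries, being -1.61 without KO PP 23, -0.29 without KO PP 22 and -0.35 without WT PP 11. In this condition the pan-epithelial sum was 5212 ± 1520 CPM in WT and 6726 ± 1748 in MCJ-deficient mice, and red blood cell markers summed to 307 ± 46.1 and 6645 ± 5478 CPM (SD, n = 3 each). The part of these differences was not tested.

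**Figure D4:**
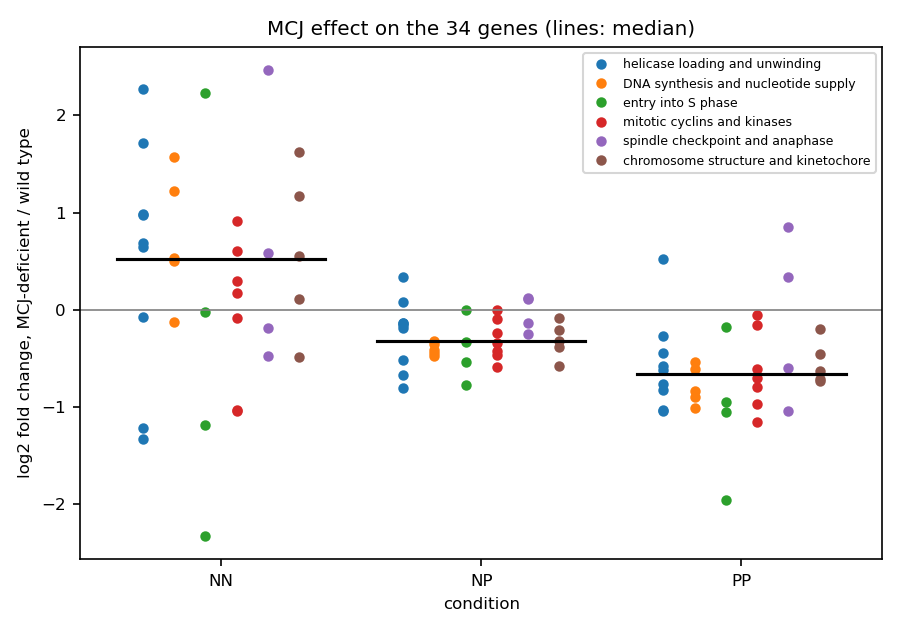
Log2 fold change of MCJ-deficient over wild type for the 34 members (points, coloured by role) in NN, NP and PP, with the median as a line. The medians are 0.52, -0.32 and -0.66, the points spread widest in NN, and no point passed the test.

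The change of the MCJ effect between conditions was tested as an interaction in 1 fit of all libraries. For PP minus NN, 0 of 34 passed by edgeR or DESeq2, against 0.0236% of genes higher and 0.0295% lower by edgeR and 0.472% and 0.484% by DESeq2. There 28 of 34 were negative with a median of -1.11 (all genes -0.17), which was -2.22 without KO PP 23 and -0.72 without WT PP 11. An unadjusted p under 0.05 (edgeR) was found for 6 (Mcm2, Mcm3, Mcm4, Mcm7, Rrm1 and Rrm2), against 8.26% of all genes. The lowest adjusted p among members was 0.532 for Mcm2 (-2.09, SE 0.84, edgeR). For NP minus NN and PP minus NP, 0 of 34 passed by either test, where 0.0% of genes passed by edgeR. In both 0 had an unadjusted p under 0.05 (edgeR), against 5.6 and 5.22% of all genes. The medians were -0.65 and -0.27. With single libraries left out the first lay between -1.03 (without WT NP 9) and -0.26 (without WT NP 8), and the second between -1.36 (without KO PP 23) and -0.01 (without KO PP 22). By DESeq2 0.607% of genes were higher and 0.224% lower for NP minus NN, and 0.183% and 0.295% for PP minus NP. Averaged over the 3 conditions the MCJ effect passed for 0 of 34 by either test, against 0.0% of genes higher and 0.0059% lower by edgeR and 1.39% and 1.42% by DESeq2, and the median was -0.09, with a range of -0.42 (without KO PP 23) to 0.04 (without KO PP 22). Pcna alone had an unadjusted p under 0.05 in that average (-0.33, SE 0.13; adjusted p = 0.283, edgeR), against 13.7% of all genes. A different response to treatment in the genotypes was thus not shown for any member, and which genotype had more members that passed for DSS changed with the libraries in the fit (3 and 0 in the fit of 17, 0 and 9 in fits of 2 groups).

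Other genes of the same processes were counted from lists of 48 replication genes, 59 mitosis genes and 47 genes of G1 control and cell cycle inhibition, of which 48, 59 and 46 could be tested. With DSS in WT, 2 replication genes, 3 mitosis genes and 1 G1 gene rose (4.2, 5.1 and 2.2% of the lists, against 2.25% of all genes) and 0 fell. Fen1, the nuclease that trims Okazaki fragments, had 2, 32 and 42 counts in WT NN and 227, 531 and 312 in WT NP, a rise of 3.13 on the log2 scale (SE 0.70; adjusted p = 0.0214, edgeR). Ncapg, a condensin subunit, had 0, 1 and 7 counts against 323, 438 and 43 (6.09, SE 1.20; adjusted p = 0.0107, edgeR). Ccnd2, a cyclin of G1, rose by 1.58 (SE 0.37; adjusted p = 0.0279, edgeR). Timeless (fork protection), Ccnf (cyclin F) and Sgo1 (cohesion at centromeres) had no count in WT NN. With counts pooled by group and 3 counts over WT NN as the floor, they were at least 36.17-fold, 31.12-fold and 133.75-fold higher in WT NP. Single libraries varied, and WT NP 7, 8 and 9 had 28, 62 and 82 counts of Timeless, 72, 49 and 27 of Ccnf and 217, 393 and 26 of Sgo1. The untreated KO NN 13 and 14 did have counts, namely 31 and 3 of Timeless, 21 and 11 of Ccnf and 41 and 58 of Sgo1.

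After antibiotic and DSS in WT, 11 of 48 replication genes and 11 of 59 mitosis genes rose and 1 of each fell, and 7 of 46 G1 genes rose and 4 fell. These rises were 22.9, 18.6 and 15.2% of the lists, and over all genes 12.8% rose and 7.31% fell. Fen1 again was among those that rose (3.13, SE 0.70; adjusted p = 0.00409, edgeR), with Usp1, which removes ubiquitin from the sliding clamp (1.83, SE 0.41; adjusted p = 0.00412). Rpa3, the small subunit of the protein that coats single-stranded DNA, fell by 1.07 on the log2 scale (SE 0.34; adjusted p = 0.0313), and Pttg1, securin, fell by 0.92 (SE 0.24; adjusted p = 0.0104). Among inhibitors of division, Cdkn2b (p15) fell by 1.74 (SE 0.34; adjusted p = 0.00175) and Btg2 fell by 1.52 (SE 0.27; adjusted p = 0.00071), while Btg1, of the same family as Btg2, rose by 1.55 (SE 0.38; adjusted p = 0.00806, all by the edgeR test). Timeless, Ccnf, Sgo1 and Ncapg rose here too (adjusted p of 0.00218, 0.000574, 0.000514 and 0.00294, edgeR). Lin54, a subunit of the complex that binds the CHR word, rose by 1.87 and Tfdp1 by 1.20, and E2f5 fell by 1.19 (adjusted p of 0.00273, 0.00863 and 0.00262, edgeR). In MCJ-deficient mice the same comparison gave a fall of Rpa3 by 1.51 and of Btg2 by 1.40 (adjusted p of 0.0131 and 0.00387, edgeR). Btg1 and Lin54, which also rose in WT, did so there by 1.76 and 1.45 (adjusted p of 0.0166 and 0.0451, edgeR). For PP against NP in WT, Btg1 rose by 1.54 and Btg2 fell by 1.07 (adjusted p of 0.0279 and 0.027, edgeR), with Btg1 counts of 10106, 11634 and 15000 in WT NP and 48034, 11207 and 30187 in WT PP. WT PP 11 lay within the NP range for Btg1.

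Where no gene of a list passed, some of the genes with the smallest p were read out. With DSS in MCJ-deficient mice 0 genes of the 3 lists passed by edgeR or DESeq2, and 0, 2 and 3 replication, mitosis and G1 genes had an unadjusted p under 0.05, as did 8.27% of all genes. The smallest were those of Cdkn1a (p21, an inhibitor of cyclin-dependent kinases), with a log2 fold change of -0.83, Btg2 with -0.76 and Kif23, a kinesin of cell separation, with 2.05 (adjusted p of 0.292, 0.333 and 0.473, edgeR). For PP against NP in MCJ-deficient mice 0 genes passed by edgeR, and the log2 fold changes were 1.497 for Btg1, -1.24 for Rpa3 and 0.93 for Cdkn1a (adjusted p of 0.0552, 0.0702 and 0.0902, edgeR). DESeq2 passed these 3. For loss of MCJ 0 genes of these 3 lists passed in NN, NP or PP by the edgeR test or DESeq2. By edgeR an unadjusted p under 0.05 was found for 1 replication gene, 5 mitosis genes and 1 G1 gene in NN, for 2, 1 and 1 under DSS and for 6, 1 and 1 after antibiotic and DSS. Over all genes tested 8.29, 9.24 and 5.21% had such a p in these 3 comparisons. Rpa3 was among the 2 replication genes with the smallest p in both treated conditions, with -0.69 (SE 0.30; adjusted p = 0.498, edgeR) under DSS and -0.98 (SE 0.36; adjusted p = 0.938, edgeR) after antibiotic and DSS. In NN those 2 were Clspn and Usp1 (adjusted p of 0.572 and 0.665, edgeR). Averaged over conditions, DESeq2 passed Rpa3 as lower and Ccnf as higher in MCJ-deficient mice, and edgeR passed neither (-0.75 and 2.88, adjusted p of 0.127 and 0.0961). For the change of the MCJ effect between conditions edgeR passed 0 genes of the lists. DESeq2 passed 1 mitosis gene as lower for NP minus NN and 2 for PP minus NN, where 0.224 and 0.484% of all genes were lower. Sgo1, without a count in WT NN, had the smallest edgeR p of the mitosis genes in both (-9.42 and -8.81, adjusted p of 0.274 and 0.232).

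Mki67, a widely used marker of dividing cells, did not always stand with the other mitosis genes. It made up 0 to 14.7% of the summed level of the other 15 mitosis genes without treatment, 6.51 to 13.1% with DSS, and 30.0, 13.1 and 26.3% in WT PP 10, 11 and 12. In KO PP 22, 23 and 24 it made up 124, 14.8 and 27.9%. KO PP 22 had 46.1 CPM of Mki67, the second highest of the 17 libraries, with 1.14 CPM of Cdk1, 2.05 of Ccna2, 4.67 of Top2a and 0.967 of Birc5, a subunit of the chromosomal passenger complex. In WT PP 10, with 58.9 CPM of Mki67, those genes had 13.8, 30.7, 42.4 and 14.2 CPM. The libraries were singled out after their values were seen, and nothing was tested.

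**Figure D5:**
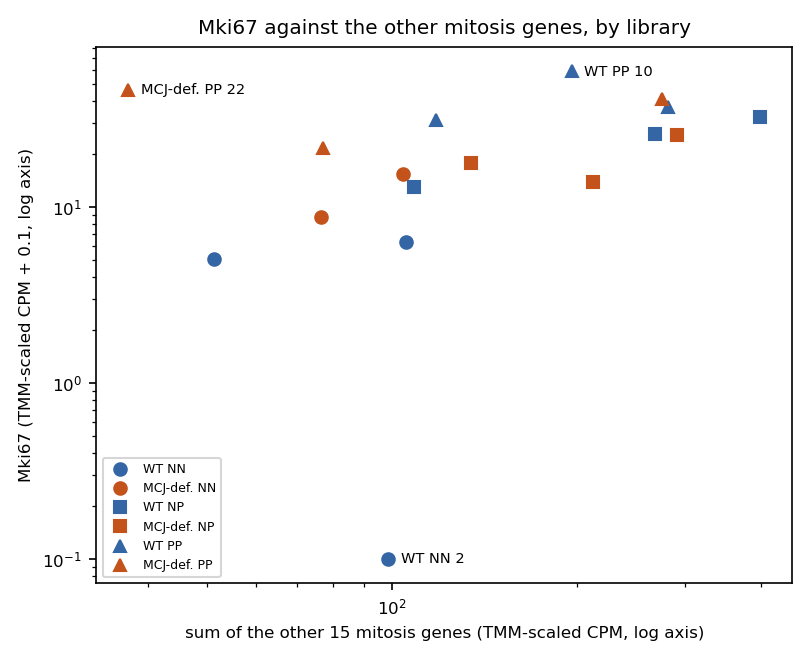
Level of Mki67 (y axis, TMM-scaled CPM + 0.1, log axis) against the summed level of the other 15 mitosis genes (x axis, TMM-scaled CPM, log axis), 1 point per library, colour by genotype and shape by condition. KO PP 22 stands at the upper left, with 46.1 CPM of Mki67 and the lowest sum of the others, and WT NN 2 stands at the bottom without a count of Mki67.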

How the data were processed

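The authors deposited 3 tables of raw gene counts, 1 per condition, each listing 27179 genes by NCBI number. According to the labels and per the submitters' processing notes, CASAVA 1.8.2, FastQC, Trim Galore, STAR 2.5.4, mm10 and DESeq2 were used, and the counter, the annotation and the strand setting are not given in the sources used here. Without strand, antisense reads cannot be told apart. RefSeq gave symbols for 25275 gene numbers, and the other 1904 took 1.39 to 7.32% of counts. Exon lengths were those of GENCODE M21.

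Genes with low counts were removed (filterByExpr), TMM factors set the library scale, and genes were tested with the edgeR 4.0.16 quasi-likelihood test in R 4.3.3. Adjusted p-values are Benjamini-Hochberg over all genes tested in a comparison, with 0.05 as threshold. The MCJ effect came from the 2 groups of a condition, and treatments, interactions and the average from 1 fit of the 17 libraries, which joins the 3 tables. The fits were run on simulated counts with known large fold changes, for some of the comparisons. That simulation used a fixed spread, not the spread of these libraries, and does not measure how reliable the calls are. The p-values measure the spread between these libraries. Intervals and floors cover counting error only.

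The members and the gene lists were chosen with earlier results of these data known. Open to naming were all members and Dnajc15. So were, per other list and comparison, genes with an adjusted p under 0.05, at most the 3 with the smallest p in each direction. Where none passed, the 2 with the smallest p took their place. Not every gene open to naming is described in the text, and the levels of Tyms, Tk1, Cenpa and Cenpe are shown only in the figures. Alternatives were DESeq2 1.42.0, RLE factors, no filter, removal of 15 mitochondrial genes, scaling to pan-epithelial markers, other groups in the fit, a block by mouse number (added after seeing the data), and each library left out.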

Additional observations from a re-analysis of the deposited data

How the results depend on the processing

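The number of members that passed for DSS in WT was 3, and it became 12 with DESeq2, 8 without a filter, 10 scaled to pan-epithelial markers and 0 in a fit of only the 2 groups. Of all genes 2.25, 5.31, 2.47, 5.05 and 0.259% rose, in the same order. In MCJ-deficient mice the number went from 0 to 9 in a fit of only the 2 groups, and the share of genes that rose from 2.04 to 5.91%. For antibiotic and DSS against no treatment in WT the number went from 12 to 25 scaled to pan-epithelial markers and to 5 with only the 2 groups. There 12.8, 44.4 and 6.89% of genes rose. In MCJ-deficient mice the number went from 0 to 1 with DESeq2 and 3 with that scaling (Cdt1, Mcm4 and Pcna), where 6.52, 11.3 and 16.4% of genes rose. With each library left out in turn the number lay between 0 and 4 for DSS in WT, between 6 and 13 for antibiotic and DSS in WT (6 without WT PP 10), and between 0 and 1 in MCJ-deficient mice (Aurkb without KO PP 23, Mki67 without WT NN 2, Mcm4 without WT NP 8). For the other comparisons, loss of MCJ included, it was 0 under every setting run, the block below included. A fit of fewer groups has fewer libraries to estimate the spread. The cause of these changes was not tested for any setting. For single libraries left out, the share of all genes is given above only for WT NP 8, WT NN 1 and KO PP 23. Where 1 library was left of a group of 2, it was assumed to vary like the other groups. The titles give the mouse numbers 1 and 2 to WT and MCJ-deficient mice without treatment and again to MCJ-deficient mice with DSS, without stating that a number marks a shared animal, litter or day. Deviations of same-numbered libraries from their group means correlated with r between -0.056 and -0.052 over genes for the genotypes without treatment and between 0.001 and 0.036 for DSS in MCJ-deficient mice. A replicate block by mouse number, chosen after seeing the data and fitted to only the 2 groups, gave 0 members for loss of MCJ without treatment, and 20 for DSS in MCJ-deficient mice, where 1263 of 14985 genes rose. The other pairs of groups that were compared share at most 1 number, so that no block was fitted. Members with few counts, such as Ccne2 and E2f1, have the widest errors.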

Other observations

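Within the untreated group, WT NN 2 differed from the other libraries in both directions. It had no count for Mcm3, Mcm5, Cdc6, E2f1, Ccne1, Bub1, Bub1b, Cdc20 and Mki67, and it had the highest level of the 17 libraries for Gins2 (14.3 CPM), Ccne2 (4.57 CPM) and Uhrf1 (14.7 CPM), the protein that brings maintenance methylation to new DNA. In WT NN 1 and 3 Gins2 had 2.74 and 3.44 CPM and Uhrf1 had 3.19 and 0 CPM. The same library had the fewest genes with at least 10 counts, 10075, of all libraries.

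The balance of mitosis to S phase genes overlapped between all groups. The summed level of the 16 mitosis genes was between 44.5 and 67.7% of that of the 18 S phase genes in WT NN, between 49.2 and 79.9% in WT NP, and between 49.5 and 66.5% in WT PP. In MCJ-deficient mice it was 43.5 and 64.8% without treatment, 62.4 to 93.4% with DSS, and 42.6 to 79.8% after antibiotic and DSS. These patterns were chosen after the values were seen and were not tested.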
